A study of Mus musculus with 7 samples.

Results

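Long non-coding RNA (lncRNA) genes that run antisense to coding exons were described from the gene annotation of a mouse intestinal stroma study. They were chosen by position: a gene of type lncRNA entered when its merged exons shared 1 base or more with a merged exon of a protein-coding gene on the opposite strand. Merged exons are the exons of all isoforms of a gene laid over each other. The rule was met by 2175 of 9888 lncRNA genes (22.0%), in an annotation of 32286 genes. They faced 2214 of 21700 protein-coding genes (10.2%) and formed 2346 lncRNA and coding gene pairs. These counts are complete for the annotation, so no sampling error is attached to them, and no statistical test was run.

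The study itself profiled single stromal cells by droplet RNA sequencing of transcript 3' ends (10x Genomics, v3 chemistry). Cells positive for GFP were sorted from Rspo3-GFP transgenic mice of C57Bl6 background aged 8 to 12 weeks, and the design text adds that they were negative for Epcam and CD45. Small intestine gave 2 untreated samples, 2 samples from unirradiated control mice and 2 samples from mice irradiated with 12 Gy, and colon gave 1 untreated sample. Expression values of these 7 samples were not analysed here, so nothing below says whether any of these genes was transcribed in a sample, and cell types could not be checked against markers. The labels do not say which sequences drive the transgene.

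An antisense lncRNA is copied from the strand opposite a coding gene, so where exons of both overlap, the transcripts hold reverse complementary bases. Some act in cis on nearby genes, as Kcnq1ot1 does in silencing imprinted neighbours, and Uchl1os is known for promoting translation of its partner's mRNA. Others share a promoter region with a coding gene and are transcribed away from it. Many mouse loci of this kind carry the suffix os, for opposite strand, after the symbol of the coding gene.

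In the study's own target locus the rule found 1 antisense gene. Gm48159 (ENSMUSG00000110831) lay opposite the first exon of Rspo3, which encodes the Wnt-amplifying ligand R-spondin 3. Its sequence and 3 others are shown because the lncRNA runs across the start codon of the partner. Each is the stretch of the lncRNA that faces coding sequence of the partner, read 5' to 3' on the lncRNA strand from GENCODE M21 transcripts of the same build (GRCm38). For Uchl1os it is the longer of its stretches. The capitals mark the reverse complement of the start codon.
Gm48159, opposite Rspo3, chr10:29535232-29535328, plus strand: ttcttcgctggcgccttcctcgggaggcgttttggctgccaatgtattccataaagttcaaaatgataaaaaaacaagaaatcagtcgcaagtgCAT
Uchl1os, opposite Uchl1, chr5:66676290-66676322, minus strand: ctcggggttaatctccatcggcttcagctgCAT
Gm36026, opposite Krt8, chr15:102004212-102004239, plus strand: aggatttctgagtcaccctgatggaCAT
2810468N07Rik, opposite Sox8, chr17:25570358-25570522, plus strand: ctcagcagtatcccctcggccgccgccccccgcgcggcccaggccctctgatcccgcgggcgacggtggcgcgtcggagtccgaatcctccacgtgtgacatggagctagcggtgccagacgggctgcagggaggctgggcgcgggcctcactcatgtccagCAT

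In all 4 sequences the antisense start codon, CAT, stood at the 3' edge of the stretch, since the lncRNA reads on from coding sequence into the bases opposite the 5' UTR. The stretch measured 97 bases opposite Rspo3, 33 opposite Uchl1 (a neuronal ubiquitin hydrolase), 28 opposite Krt8 (an epithelial keratin) and 165 opposite Sox8 (a transcription factor of neural crest and glia). GC content was 43.3% for the Rspo3 stretch and 72.1% for the Sox8 stretch.

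A further 4 sequences are shown for lncRNAs that face coding exons away from the start codon. Here the capitals mark the bases opposite coding sequence, and the lower case letters are up to 20 bases of the same lncRNA exon that face an intron of the partner.
Kcnq1ot1, opposite Kcnq1, chr7:143261236-143261396, minus strand: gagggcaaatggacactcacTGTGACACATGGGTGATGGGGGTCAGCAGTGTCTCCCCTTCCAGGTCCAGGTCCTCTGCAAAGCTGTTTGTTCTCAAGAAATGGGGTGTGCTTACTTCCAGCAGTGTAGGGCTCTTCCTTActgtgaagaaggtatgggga
Gm46603, opposite Pi16, chr17:29322166-29322417, minus strand: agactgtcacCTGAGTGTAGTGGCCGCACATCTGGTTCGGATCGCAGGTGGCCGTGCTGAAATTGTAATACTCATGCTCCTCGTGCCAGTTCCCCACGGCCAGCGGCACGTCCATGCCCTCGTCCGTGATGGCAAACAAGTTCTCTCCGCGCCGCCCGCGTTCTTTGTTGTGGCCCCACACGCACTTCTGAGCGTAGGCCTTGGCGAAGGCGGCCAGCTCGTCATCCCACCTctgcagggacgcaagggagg
Gm16897, opposite Cd34, chr1:194959046-194959213, minus strand: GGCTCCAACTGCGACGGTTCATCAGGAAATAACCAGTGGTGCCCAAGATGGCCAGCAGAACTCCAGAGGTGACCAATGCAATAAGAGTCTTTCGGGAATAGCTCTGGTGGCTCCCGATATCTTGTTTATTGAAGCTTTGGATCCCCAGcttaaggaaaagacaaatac
Gm44148, opposite Usp18, chr6:121255244-121255387, minus strand: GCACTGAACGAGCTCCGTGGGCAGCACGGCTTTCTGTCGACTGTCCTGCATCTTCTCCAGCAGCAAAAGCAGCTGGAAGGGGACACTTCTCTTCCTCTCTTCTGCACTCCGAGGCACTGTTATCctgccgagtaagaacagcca

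Kcnq1ot1 and Gm46603 ran through a whole coding exon and on into both flanking introns. In each, the 2 letters before the capitals were ac and the 2 letters after them ct, the reverse complements of the GT and AG that usually end an intron. Gm16897, opposite the endothelial and progenitor surface marker Cd34, and Gm44148, opposite the interferon-induced protease gene Usp18, crossed 1 exon edge and carried ct there. Over all pairs with a matched sequence, exons of the lncRNA's longest matched isoform crossed 1551 donor sites of the partner's coding isoforms. Of these sites, 1525 (98.3%) read AC on the lncRNA strand. The same exons crossed 1464 acceptor sites, of which 1455 (99.4%) read CT. With merged lncRNA exons and all isoforms of the partner, at least 1 partner splice site was crossed in 1596 of 2346 pairs (68.0%).

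The bases shared with coding exons chose the members, so their number is a description. A member shared a median of 256 exonic bases with its partners (quartiles 126.5 and 501.5), which was 21.2% of its exonic length (quartiles 10.1% and 41.2%). All exonic bases were shared in 86 members (3.95%), and under 10% in 541 (24.9%). The most were shared by Gm26672, with 5187 bases across 4 protocadherin genes on chromosome 18 (37746559 to 37768242, minus strand). A630072M18Rik followed with 5142 bases on Rsbn1l out of the 5410 in its single exon. Gm16638 on Tmc3 (3961 bases), Gm11532 on Sp6 (3329 bases) and Gm29358 on Tmbim1 (3265 bases, its whole length) came next. A single partner was found for 2018 members (92.8%) and 2 or more for 157 (7.22%). Gm20528 had the most, 9, all of them Ugt1a genes, whose models overlap each other, so these 9 are not separate loci.

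At the threshold, Ict1os, Gm14104 and 4833428L15Rik were members with 2 shared bases each. Just outside it, exons of Gm13299, Gm10000 and Gm49208 ended at the base next to an opposite-strand coding exon (a gap of 0 bases). Up to 10 bases were shared in 32 members, and 24 other lncRNA genes lay under 10 bases from an opposite-strand coding exon.

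Members were longer than other lncRNA genes but had no more exons. Merged exonic length had a median of 1251 bases in members (quartiles 659 and 2427) and 977 bases in the 7713 other lncRNA genes (quartiles 578 and 1887). Exon number had a median of 3 in both (2 in members and 3 in the others when only the longest isoform was counted), with a mean of 3.28 ± 2.55 (SD, n = 2175 genes) in members and 3.30 ± 2.22 (SD, n = 7713 genes) in the others. A single exon was annotated for 227 members (10.4%) and for 8.35% of the others, and 5 or more exons for 18.9% and 16.8%. Genomic span hardly differed, with medians of 5987 and 5980 bases. Longer exons give more room for an overlap, so length is not independent of the rule. The share of members rose with it, from 18.1% of lncRNA genes of 78 to 595 bases to 28.0% of those of 2032 bases or more, the outer classes when lncRNA genes are split by the quartiles of length.

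**Figure D1:**
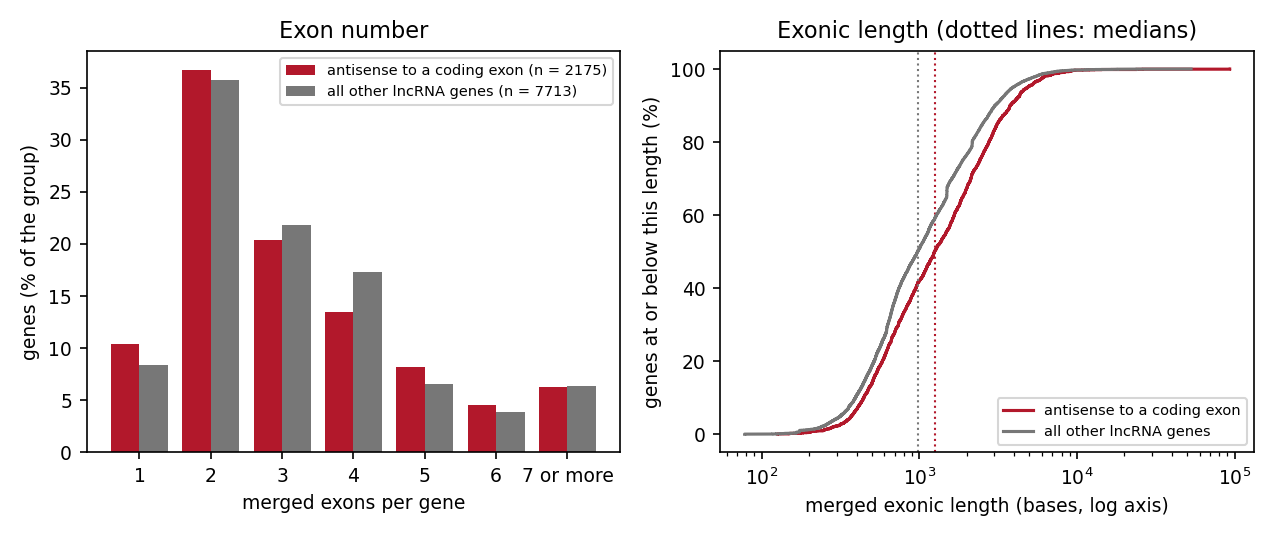
Left, share of genes (%) by number of merged exons, for lncRNA genes antisense to a coding exon (n = 2175) and all other lncRNA genes (n = 7713). Right, cumulative share of genes (%) against merged exonic length in bases on a log axis, with dotted lines at the medians of 1251 and 977 bases. The length curve of the antisense genes lies to the right, while the exon numbers are alike.

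More isoforms were annotated for members. Merged exons of more isoforms cover more bases, so isoform number is not independent of the rule either. A single isoform was given for 1409 members (64.8%) and for 5676 others (73.6%), and the mean was 1.71 ± 1.60 isoforms (SD) against 1.52 ± 1.74. Among lncRNA genes of 2032 bases or more, 59.5% of members and 44.9% of others had more than 1 isoform. Among those of 78 to 595 bases the shares were 2.46% and 6.02%, the other way round. Hand2os1, opposite the heart and limb transcription factor gene Hand2, had the most isoforms of all members, 37, over 13 exons. Gm26885 opposite the kinase gene Pim1 had 20, and Mir99ahg, a host gene of micro RNAs, had 17. Snhg14 had the most exons, 65, in 15 isoforms. It is the long host transcript that runs into Ube3a, an imprinted ubiquitin ligase gene, and it shared 1803 bases with the 3' UTR of Ube3a, 6.91% of its own length. Gm10634 (26 exons), Junos (23) and 4933431K23Rik (22) followed in exon number.

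Chromosome Y stood apart in this comparison. It held 554 lncRNA genes, of which 1 (0.181%) was antisense to a coding exon, against 16.6% to 30.4% on the 19 autosomes and 16.3% on chromosome X. Without chromosome Y, members were 23.3% of 9334 lncRNA genes. The 553 other lncRNA genes of chromosome Y had a median of 4 exons and 1495 bases, and only 43.9% of them had a single isoform. With them left out, the remaining others had a median of 961 bases, a median span of 6835 bases, and a single isoform in 75.9%. Chromosome 11 had the highest share of members (144 of 474 lncRNA genes) and chromosome 13 the lowest autosomal share (101 of 607).

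Members were set beside the lncRNA genes nearest to them in kind. A total of 1261 lncRNA genes lay opposite the span of a coding gene but shared no exonic base with it. These were shorter, with a median of 813 bases, and 79.1% had a single isoform. Another 489 overlapped no coding gene on the opposite strand but started within 1000 bases upstream of a coding start, pointing away from it. They had a median of 1159 bases, and 64.8% had a single isoform, the same share as in members. Single-exon genes made up 4.28% of the first class and 17.4% of the second, with members in between at 10.4%. No test of these differences was run, since the classes are defined by overlap.

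Which end of the partner was overlapped followed from the orientation of the pair, taken from gene starts and ends. Head to head pairs, whose 5' ends overlap, numbered 877 (37.4%). In 870 pairs (37.1%) the lncRNA lay inside the span of the coding gene, in 512 (21.8%) the 3' ends overlapped tail to tail, and in 87 (3.71%) the coding gene lay inside the lncRNA locus. Head to head pairs shared bases with the first exon of the partner in 79.8% of cases. Tail to tail pairs reached the last exon in 62.5% and an internal exon in 53.7%. Where the lncRNA lay inside the partner, an internal exon was shared in 84.1%, the last exon in 17.9% and the first in 5.52%. In part these values follow from the geometry itself.

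**Figure D2:**
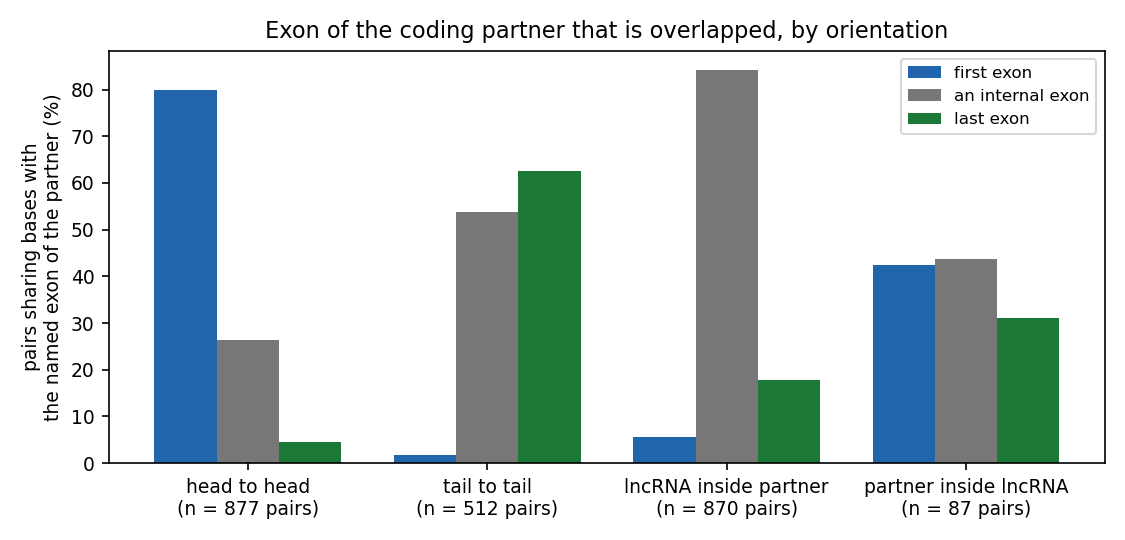
Share of pairs (%) in which the lncRNA shares 1 base or more with the first, an internal or the last merged exon of the coding partner, by orientation. A pair can count in more than 1 bar. The first exon leads in head to head pairs (79.8%) and an internal exon where the lncRNA lies inside its partner (84.1%).

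Counted per lncRNA gene, 779 of 2175 members (35.8%) overlapped the first exon of a partner, 1251 (57.5%) an internal exon and 529 (24.3%) the last. A further 67 (3.08%) faced a partner with a single merged exon. Internal exons alone were met by 908 members (41.7%), the first alone by 520 (23.9%) and the last alone by 279 (12.8%). A complete start codon was covered by 498 members (22.9%) and a complete stop codon by 206 (9.47%). From the lncRNA's side, 1120 members (51.5%) overlapped with their own first exon and 991 (45.6%) with their last.

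Per base, the 5' end of coding genes was covered most. First exons held 8.26% of all exonic bases of protein-coding genes but 217716 of the 871818 bases that faced a lncRNA exon, and 2.71% of first-exon bases were covered. Internal and last exons were covered over 0.737% and 0.681% of their bases. Last exons held 37.9% of all exonic bases and 28.7% of the overlapped ones, and internal exons 51.4% and 42.2%. Read by annotation, 5' UTR bases made up 7.33% of all coding-gene exonic bases and 20.8% of the bases that faced a lncRNA. Coding sequence made up 37.7% and 45.1%, and 3' UTR bases 33.6% and 21.3%. The remainder, 21.4% and 12.7%, lay in exons of transcripts that are not of coding type, such as retained introns. In all, 2.55% of 5' UTR bases, 1.08% of coding bases and 0.57% of 3' UTR bases were covered, so the order ran from 5' UTR to coding sequence to 3' UTR.

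**Figure D3:**
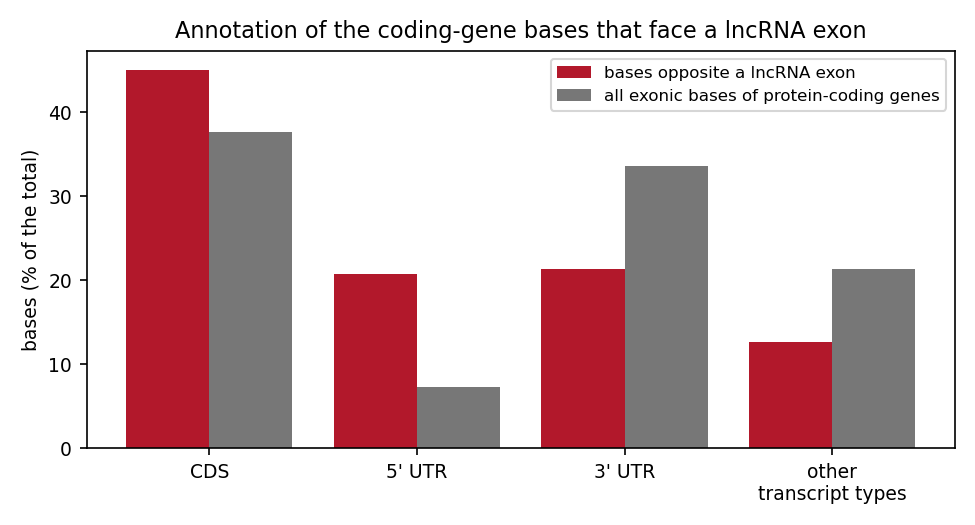
Make-up (%) of the coding-gene exonic bases that face a lncRNA exon, beside the make-up of all exonic bases of protein-coding genes. Bases of 5' UTRs are 20.8% of the first and 7.33% of the second, and bases of 3' UTRs 21.3% and 33.6%.

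Along the partner, coverage fell from the 5' end and then stayed level. Averaged over the 2346 pairs, the lncRNA covered 22.1% of the first 5% of the partner's exonic length, 13.5% of the stretch from 10% to 15%, 7.24% of that from 45% to 50% and 7.11% of the last 5%. In head to head pairs the first 5% was covered to 50.2% and the last to 0%. Tail to tail pairs rose the other way, from 0.497% to 24.4%, so coverage at their 3' edge was lower than at the 5' edge of head to head pairs. Both gene starts lay within 1000 bases of each other in 577 of 877 head to head pairs (65.8%), with a median distance of 672 bases (quartiles 327 and 1417). Shared stretches were longest in tail to tail pairs, with a median of 329 bases against 205 in head to head pairs.

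**Figure D4:**
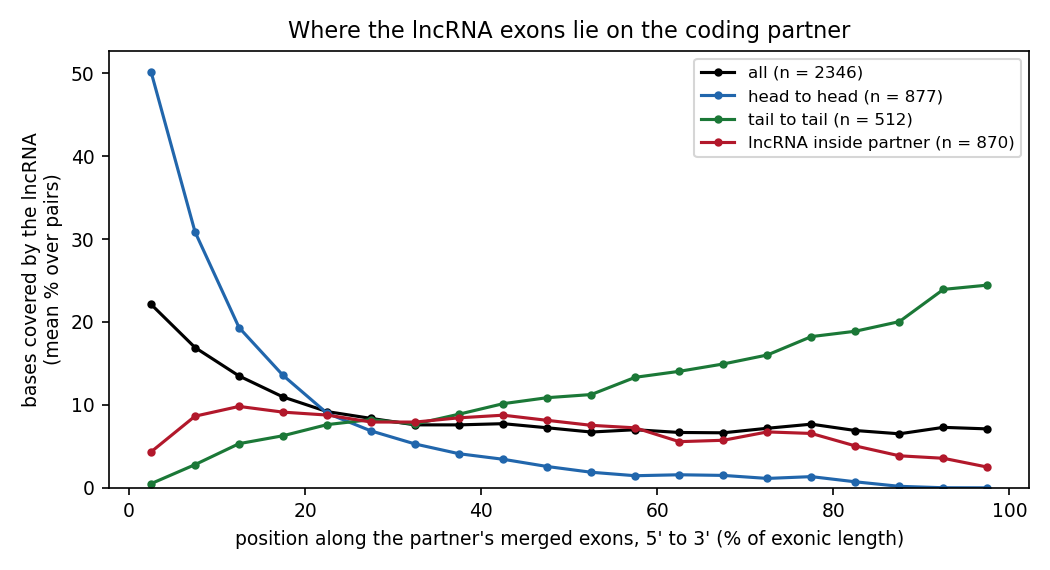
Mean share (%) of bases covered by the lncRNA in each of 20 equal parts of the partner's merged exons, 5' to 3', over all 2346 pairs and by orientation. The curve of all pairs starts at 22.1% and levels near 7%; head to head pairs start at 50.2%, and tail to tail pairs end at 24.4%.

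Gene structure varied with orientation. The classes are set by gene starts and ends, so the sizes of enclosed and enclosing members follow in part from them. Members that lay inside their partner were the shortest, with a median of 822.5 bases, and 80.4% of them had a single isoform. Head to head members (n = 730) had 1580.5 bases and 56.8% with a single isoform. Tail to tail members (n = 374) had 1577 bases and 57.2%. Each class holds members whose pairs all had the same orientation. The 147 members with pairs of different orientation had a median of 2128 bases, and 42.9% had a single isoform. A single exon was annotated for 20.7% of head to head members, 2.67% of tail to tail members and 6.48% of those inside a partner. The 60 members whose coding partners all lay inside them had a median of 5 exons and 1872.5 bases.

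Base composition was read from M21 transcripts, which matched 2170 members and 7692 other lncRNA genes by identifier, version and length. In 2167 of 2167 pairs with both sequences, the shared stretch was identical on both strands once reverse complemented. Both sequences come from the same build, so this checks only how they were read. GC content lay between quartiles of 46.2% and 54.5% in members and of 42.8% and 49.5% in other lncRNA genes. The median observed over expected CpG ratio was 0.350 and 0.229. Within a member the shared part was richer in GC than the rest: over the 1778 members with 50 bases or more of each, the medians were 56.0% and 48.6%, and the shared part was higher in 1430 (80.4%). The difference had a median of 14.0 percentage points in head to head members, 5.94 in members inside a partner and 1.84 in tail to tail members. The shared part is by the rule also exon of a coding gene, so its GC content is that of the partner. A polyadenylation signal, AATAAA or ATTAAA on the transcript strand in the last 50 bases, was found in 46.3% of members and 41.7% of the others, a small difference. By orientation it stood in 53.3% of head to head members, 48.1% of tail to tail members, 38.4% of those inside a partner and 36 of the 60 whose partner lay inside them.

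Start regions were compared in RefSeq windows (GRCm38.p6) from 250 bases before to 50 after a start within 1000 bases of the annotated one. These matched 644 members and 2255 other lncRNA genes by symbol, so most lncRNA genes are not covered. The observed over expected ratio of CpG was 0.6 or more in 43.3% of the members and 16.9% of the others. Among head to head members it was 58.0%, among tail to tail members 43.7% and among members inside a partner 20.6%. Coding partners gave 64.2% (n = 1537) and the other protein-coding genes 52.99% (n = 12793), so the head to head value lay between those of both coding groups. The letters TATAAA stood on either strand in 7.61% of member windows and 15.8% of the windows of other lncRNA genes, with 8.91% for the coding partners and 11.6% for the other protein-coding genes. A match describes letters in the window and does not mark a site in use.

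The earlier GENCODE release M21 still split lncRNA genes by kind. Several of these kinds rest on position relative to coding genes, as the rule does, so they are not independent of it. M21 had typed 1677 members (77.1%) as antisense, 255 (11.7%) as processed transcript, 121 (5.56%) as lincRNA (intergenic) and 69 (3.17%) as bidirectional promoter lncRNA. A further 35 members had been protein-coding in M21. Among the other lncRNA genes 1275 (16.5%) carried the antisense type, and 1050 of these lay opposite the span of a coding gene without sharing an exonic base. The intergenic type held 71.0% of the others. Symbols that end in os or as, with or without a number, were given to 172 members (7.91%) and 123 others (1.59%). Transcript support, taken from the best isoform of a gene, was of the best grade (level 1) for 48.0% of members and 38.9% of others. Members had more isoforms, so isoform number bears on this value. On the same strand, only 30 members and 68 other lncRNA genes shared a base with a coding exon.

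Libraries of this kind read near transcript ends, so the last 500 exonic bases of the longest isoform were examined. They held a base opposite a coding exon in 1155 members (53.1%), and lay wholly opposite coding exons in 181 (8.32%). Every member shares an exonic base by the rule, so these shares are not independent of it. In 310 members (14.3%) there were under 500 exonic bases, so the window took in the whole isoform. Conversely, 356 protein-coding genes (1.64% of all) had a base of their own last 500 opposite a member. Where reads of either strand are counted, reads from such stretches cannot be told apart between the lncRNA and its partner. Whether counting used strand could not be read from the labels, and the part of this in any expression value was not tested.

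For the loci of the study's biology, gene lists were set beside the 10.2% of all protein-coding genes with an antisense lncRNA exon. Over all lists together, 64 of 333 genes (19.2%) had one. The lists were picked by hand for known regulators and markers, and no enrichment test was run.

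Niche signals lay near that share. Rspo3 alone had an antisense lncRNA among 11 genes of R-spondins and their receptors (9.09%). Gm48159 lay on the plus strand of chromosome 10 from 29534717 to 29614471, while Rspo3 lay on the minus strand from 29452416 to 29535867. The lncRNA had 2 exons, 1113 exonic bases and 1 isoform. It shared 404 bases (36.3% of its length) with the first exon of Rspo3, 307 of them opposite the 5' UTR and 97 opposite coding sequence. The gene starts were 1150 bases apart, and 306 of the last 500 exonic bases of the lncRNA lay opposite Rspo3. Among 18 Wnt ligands and secreted inhibitors, 2 had an antisense lncRNA. Gm2670 faced Wnt5a, a non-canonical Wnt ligand, over 358 bases that belong to transcripts of non-coding type only. Gm26771 faced the last exon of Sfrp2, a secreted Wnt inhibitor, over 347 bases of 3' UTR. Of 15 BMP ligands and antagonists, Bmp5 shared 1878 bases of its last exon with Gm26903, of which 150 were coding. Fst, which encodes the activin antagonist follistatin, shared 115 bases of its 5' UTR with Gm47040.

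Both endothelial lists were near the background. Prox1, the transcription factor gene that specifies lymphatic endothelium, faced Prox1os head to head over 133 bases of 5' UTR, with the starts 418 bases apart. Reln, a secreted glycoprotein gene of lymphatic vessels and brain, faced Gm10475 over 246 coding bases inside the gene. These were 2 of 15 lymphatic markers (13.3%). Of 16 blood endothelial markers, Sox17, an arterial transcription factor gene, shared 804 bases of 5' UTR with Gm37587, and Cd34 shared 148 coding bases with Gm16897.

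Antisense lncRNA exons were found for 7 of 21 fibroblast and telocyte markers (33.3%) and 4 of 12 smooth muscle and pericyte markers (33.3%), beside 10.2% of all protein-coding genes. The difference was not tested, and the lists are short. Gm42802 lay wholly opposite exons of Pdgfra, the platelet-derived growth factor receptor that marks fibroblasts, with all 456 bases on its 5' UTR. Gm29100, a single exon of 4410 bases, covered 1477 bases of the first exon of Twist2, a mesenchymal transcription factor gene, with its start and stop codons. R74862 faced Cd81, a tetraspanin gene, over 104 bases at the 5' end. Gm47200 faced 265 coding bases of Gli1, the transcription factor of Hedgehog signalling, and Gm46603 222 coding bases of Pi16, a marker of adventitial fibroblasts. Gm47575 shared 162 coding bases with the collagen gene Col6a4, and Gm13561 232 bases with Dpp4, all in transcripts not of coding type. In the mural list, Gm48529 shared 1241 bases with Tagln and Gm15179 220 bases of 3' UTR with Des, both genes of the contractile cytoskeleton. Gm17276 shared 488 coding bases with the receptor gene Notch3, and Gm10687 only 17 bases with Mcam, all in transcripts not of coding type.

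**Figure D5:**
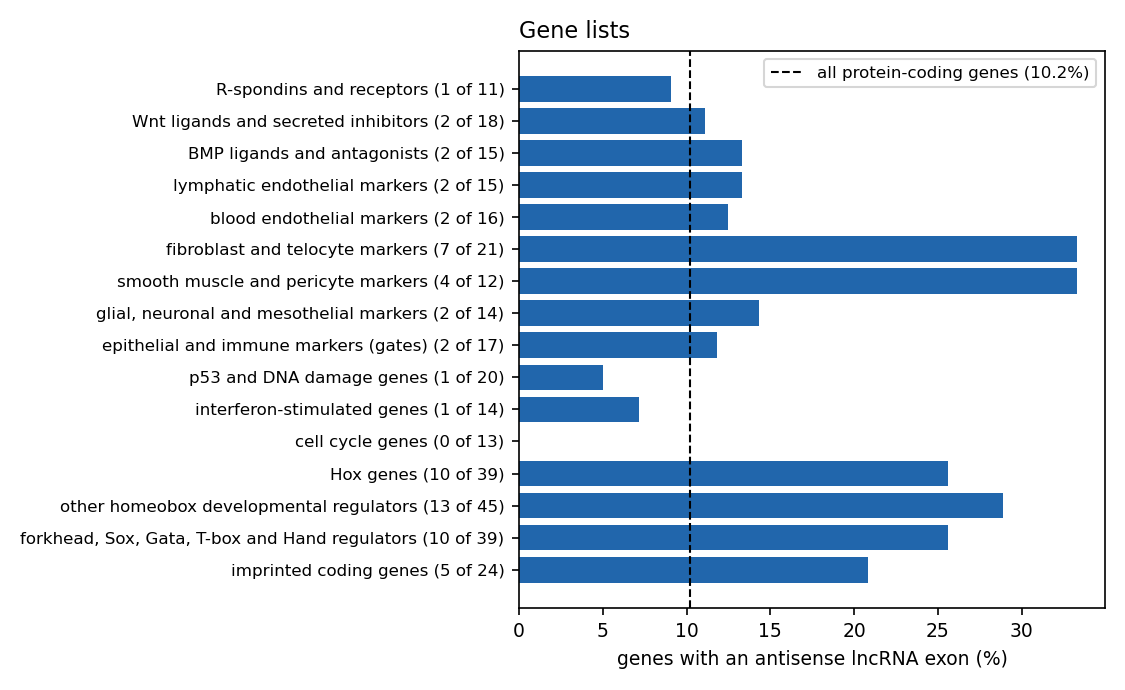
Share (%) of the genes of each list with an antisense lncRNA exon, with the counts beside each name, and a dashed line at the 10.2% of all protein-coding genes. The fibroblast and smooth muscle lists reach 33.3%, and 0 of 13 cell cycle genes have one.

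Lists for the sort gates, injury, division and other cell types lay between 0% and 14.3%. Krt8 and the T cell receptor subunit gene Cd3e were 2 of 17 gate markers, with 101 and 135 shared bases. Of 20 p53 and DNA damage genes, Gadd45a alone had one, the 9-exon E230016M11Rik, which shared 337 bases at its 5' end. Usp18 was the 1 of 14 interferon-stimulated genes, and 0 of 13 cell cycle genes had an antisense lncRNA exon. Glial, neuronal and mesothelial markers gave 2 of 14. There Uchl1os, 9 exons long, shared 295 bases with the 5' end of Uchl1, with starts 407 bases apart, and Gm26995 shared 268 coding bases with the nitric oxide synthase gene Nos1.

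Developmental regulators lay above the 10.2%, which was not tested. Antisense lncRNA exons were found for 10 of 39 Hox genes (25.6%), 13 of 45 other homeobox regulators (28.9%) and 10 of 39 forkhead, Sox, Gata, T-box and Hand genes (25.6%). Hoxa3, which specifies anterior segment identity, had 3 such lncRNAs: Hoxaas2 on its last exon (503 bases), Hoxaas3 on its first (297 bases) and Gm29430 on internal exons (437 bases). Hoxa11os faced 800 bases of the first exon of Hoxa11, 709 of them coding. Hoxb3os shared 2250 bases with the last exon of Hoxb3 and 953 bases with Hoxb2. Neighbouring Hox models overlap on their own strand, so a lncRNA can count for more than 1 of them, as Hoxd3os1 does with the same number of bases (347) for Hoxd3 and Hoxd4.

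Outside the Hox clusters, several lncRNAs named for a regulator met the 5' UTR in its first exon. Six3os1 shared 106 bases of 5' UTR with Six3, Otx2os1 154 with Otx2, Emx2os 264 with Emx2 and Tbx3os1 115 with the limb regulator Tbx3. Nkx2-2os instead faced 278 coding bases of an internal exon of Nkx2-2, and Dlx1as 335 bases of the 3' UTR of Dlx1. Zeb2os lay inside Zeb2, a regulator of epithelial to mesenchymal transition, and shared 653 bases in 5 blocks. Gm20402 lay opposite the first exon of Foxo1 for 98.1% of its length, start codon included. Among 24 imprinted coding genes 5 were partners (20.8%). Kcnq1ot1, annotated as a single exon of 93092 bases, shared 121 bases, 0.13% of its length, with 1 internal exon of Kcnq1. Gm44732 lay opposite coding sequence of the growth inhibitor gene Cdkn1c over 625 of its 635 bases, and Gnasas1 shared 988 bases with Gnas.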

How the data were processed

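The authors deposited a gene transfer format annotation, whose start and end coordinates are in bases counted from 1. The release is GENCODE M23, equal to Ensembl 98, on build GRCm38, per the file headers, with records of a reporter contig added by hand. The submitters' processing notes name Seurat 4.0.3, Cell Ranger 6.0.1 and R 4.1.0. The labels and headers do not state how strand entered the counting of reads, and depth was not analysed here.

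Exons of all isoforms were merged per gene, touching blocks joined, and intersected between strands with pandas 2.3.3 and NumPy 2.4.6 under Python 3.11.15, and intervals came from SciPy 1.17.1. The longest isoform is the one with most exonic bases. A base counted as coding where any isoform codes there. First, internal and last exons are merged exons in transcript order, so the first exon is the outermost one of all isoforms. The functions were tested on simulated data: on 2000 made pairs, 1609 with planted overlaps, all memberships, overlap sizes, exon classes and orientations were recovered.

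Members and lists were chosen with earlier results of these data known. Named genes are those whose partner is in a list, known lncRNA symbols, the extremes of each measure and the genes at the threshold; others were chosen after their values were seen. The sequences shown were also chosen then. Alternatives changed the overlap minimum, isoforms, partner bases and windows.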

Additional observations from a re-analysis of the deposited data

How the results depend on the processing

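The number of members ranged from 1529 with coding bases only to 2174 with chromosome Y left out or without partners carrying a readthrough tag (2175 before). With the longest isoform of each gene in place of merged exons, the median exon number was 2 in members against 3 in the others. The median length was then 1118.5 bases against 927, internal exons were met by 46.4% of members and last exons by 27.9%, head to head pairs were 34.6%, and coding, 5' UTR and 3' UTR bases were 53.3%, 18.6% and 23.7% of those covered. Counting only exons of the longest isoform again gave 2 exons against 3, and its length gave 1150.0 bases against 911. With 100 bases or more shared, the median length was 1391.5 bases, last exons were met by 27.1%, and head to head and tail to tail pairs were 35.4% and 23.7%. With coding bases only, first, internal and last exons were met by 26.4%, 64.9% and 18.8%, head to head pairs were 30.1%, lncRNAs inside a partner 43.0%, and 48.1% of members shared a base of their last 500. Ends set at 500 exonic bases gave 47.5%, 70.1% and 16.4% for first, internal and last. Windows of 300 and 1000 bases gave 39.1% and 70.7% of members with a shared 3' end. With exons of coding isoforms only, chosen after seeing the data, the 3 base shares were 51.7%, 23.9% and 24.5%. The other 96 values stayed within the 95% interval of the first value or, for the number of members, within a tolerance of 1450 to 3262.5 genes. The intervals served only as a yardstick for change, since the counts are complete and carry no sampling error. Leaving out automatic models was not run, since 0 lncRNA genes are of that level, nor base shares with coding bases only. No paired analysis was possible because the annotation holds no values per sample.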

Other observations

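Of 58 lncRNA symbols known from the literature, 52 were in the annotation and 18 of them were members. Wt1os was a member through 31 bases of Gm11060, a coding model inside its locus, and shared no exonic base with Wt1. Foxl2os shared 12 bases with Foxl2. Among the 34 that were not members, several had an exon edge, at either end of the gene, close to an opposite-strand coding exon. The gap was 58 bases for Gas5 (to Zbtb37), 105 for Snhg1 (to Slc3a2), 124 for Lhx1os (to Lhx1), 331 for Vax2os (to Vax2) and 383 for Foxd2os (to Foxd2). Airn, whose transcription silences Igf2r on the paternal chromosome, came within 904 bases of an exon of Igf2r and shared none, and Fendrr lay 1275 bases from the nearest exon of Foxf1.

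In 1 of 2346 pairs (0.0426%), Gm12359 and Casc3, both strands carried an intron with the same coordinates. That pair was named after its values were seen. In pairs with a matched sequence, 98.3% of the partner donor sites crossed read AC on the lncRNA strand, and 99.4% of the acceptor sites read CT. An intron usually ends in GT and AG instead. The letters were read only at partner sites inside lncRNA exons. Their part in the low count was not tested, so the count is a description only. The only member of chromosome Y was Gm28588, with 285 bases opposite Uba1y. Besides Hoxa3, the partners with 3 members were Tfap2a, Mid1, Myh7 and Atp10b, among 127 coding genes with 2 or more. One of the members of Myh7, the cardiac myosin gene, is Mhrt.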
